A study of Mus musculus with 6 samples.

Results

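AMPA and kainate receptors are the ionotropic glutamate receptors that carry most fast excitatory transmission in the brain, and the transcripts of their subunits were compared in tissue labelled hypothalamus of obese mice given GSK-J4 or vehicle. The members are the 9 genes Gria1 to Gria4 and Grik1 to Grik5, taken by name as every probe annotated to one of these symbols, which gave 23 probes among the 56605 probes and 37074 gene names of the array. The 6 arrays held 1 RNA sample each, 3 labelled vehicle and 3 labelled GSK-J4. All samples came from male C57BL/6J DIO mice, that is, mice made obese by feeding, which had received a diet with 60 kcal% of fat from 6 weeks of age for 16 weeks. Different mice were used for the independent experiments. GSK-J4, given at 30 mg kg−1, is a compound that blocks the enzymes taking methyl groups off H3k27me3, a repressive histone mark. The series places the arrays 4 d after exposure, with tissue taken at ZT 6 h, which is 6 h after lights on. The study's methods describe a longer course of treatment, so the day of the arrays rests on the series description.

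An AMPA receptor is a tetramer of GluA subunits, which Gria1 to Gria4 encode, and it opens and closes within milliseconds when glutamate binds. The GluA2 subunit, product of Gria2, makes the channel poorly permeable to calcium once its transcript has been edited by the adenosine deaminase encoded by Adarb1. Kainate receptors are tetramers of GluK subunits. Those encoded by Grik1 to Grik3 form channels by themselves, whereas the high-affinity subunits encoded by Grik4 and Grik5 need one of the former as a partner. In the hypothalamus, glutamate acting on these receptors is known to drive the neurons that control feeding.

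Each probe is a 60-base oligonucleotide, so probes of 1 gene can read different parts or forms of its transcripts. The first 30 bases, 5′ to 3′, are printed here for the probes on which the results turn, with G and C in capitals, because the change of a probe between the groups went with its share of G and C. These are the 3 probes of Gria2, the probes of Gria3 and Grik2 that passed the test, and 3 probes of Grik1 whose differences had unlike signs.
Gria2 A_52_P575176: tGGCatGGGaatGaatGtCaGtGtGaCtGa
Gria2 A_65_P00930: tttaatttGGGGGatattCCttGGGGaaaa
Gria2 A_55_P2737972: GattGCCaCttttCtttttaaatGCCCaCa
Gria3 A_52_P68221: GCGCatatttGCtCtCGtCtttaGaaaaGa
Grik2 A_52_P655120: aaatGtaatGCaaaaCatatCaGtattCaa
Grik1 A_51_P282609: GCtCaCataGatattaCttGaGGaGtGaaa
Grik1 A_55_P2805339: GaGCaGtttCtCtCtttCaatCCCatCatG
Grik1 A_66_P123972: CaGtCaGaGatGGCtCGaCaatGaCCttCt

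Over the whole probe the GC content was 45% in A_52_P575176, 40% in A_52_P68221, 43.3% in A_55_P2805339, 41.7% in A_66_P123972 and 35% in the other 4 of these probes.

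The values below are the log2 signals of the deposited table, quantile normalized by the authors, and a difference is GSK-J4 minus vehicle on that scale. Each group lay on a slide and in a scan of its own, so that treatment and slide cannot be told apart in any comparison here. The 75th percentile of the scanner signal was 787 to 916 on the vehicle arrays and 406 to 461 on the GSK-J4 arrays, and 62.8% to 63.6% against 57.7% to 58.7% of probes were well above background. The tissue label was checked against markers. Of 11 genes that mark hypothalamic neurons only 6 could be tested, and Nkx2-1 and Sim1 were well above background on 0 of 6 arrays, whereas all 8 markers of cortex, hippocampus and thalamus were above background on all 6 arrays. The summed signal of the hypothalamic list was 3189 to 3383 with vehicle and 4325 to 4956 with GSK-J4. That of the list of cortex, hippocampus and thalamus was 18694 to 19157 and 16132 to 17107, and in neither list did the groups overlap. Among single probes tested on the array, 21.2% and 24.5% did not overlap in the lower and the higher direction. Npy, at a mean log2 signal of 11.73, weighed most in the hypothalamic sum, since the next brightest gene of that list, Pomc, stood at 8.37. Of the 6 hypothalamic genes tested, 2 had a probe called higher and 0 a probe called lower, with a median of 0.62 over the brightest probes. Of the 8 genes of cortex, hippocampus and thalamus, 2 had a probe called higher and 1 a probe called lower, with a median of −0.07. Over all gene names tested these shares were 12.1% and 11.5%. The part of these lists in the results below was not tested. The summed signal of 7 neuronal markers, 209424 to 218490 with vehicle and 201791 to 236486 with GSK-J4, overlapped, and the median of their brightest probes was 0.08. Of the 7 genes, 2 had a probe called lower and 0 a probe called higher, beside 11.5% and 12.1% of all gene names tested. They were Snap25, at 1 of 3 probes (−0.75, limma adjusted p = 0.014), and Syt1, at 2 of 3 (the larger −1.14, adjusted p = 0.021). Their brightest probes were not called, at −0.44 (adjusted p = 0.085) and 0.08 (adjusted p = 0.49). The summed signal of 6 astrocyte markers, 51397 to 55079 with vehicle and 57011 to 60779 with GSK-J4, was higher without overlap. Yet 0 of the 6 had a probe called higher, and the median of their brightest probes was 0.17. Slc1a3 had 1 probe called lower (−0.76, adjusted p = 0.014), with its brightest probe at 0.17 (adjusted p = 0.22). The sums for oligodendrocytes, their precursors and microglia overlapped. The part of these markers was not tested either. The choroid plexus list stood at 102703 on vehicle array 1 and at 2432 to 11671 on the other arrays. In whole tissue, fewer cells of a type and less RNA per cell cannot be told apart.

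All 23 member probes were well above background on the 3 arrays of at least 1 group, and 22 were so on all 6. Probes of Gria2, Gria3 and Grik2 were lower with GSK-J4, and no member probe was called higher. With limma, 3 of 23 probes (13%) passed an adjusted p of 0.05 in the lower direction, beside 8.42% of the 34443 probes tested on the array, and 0 passed in the higher direction, beside 8.39% (16.8% in either direction). Without adjustment, 4 of 23 member probes were lower and 1 was higher at p of at most 0.05, beside 17% and 19.5% of all probes, so the count of lower probes was near the background. At the study's thresholds of a 1.5-fold change with an unadjusted p of 0.05, 1 member probe was lower and 0 were higher, beside 7.86% and 4.79% of all probes. The 3 GSK-J4 arrays lay below the 3 vehicle arrays for 6 of 23 probes (26.1%) and above them for 2 (8.7%), and the same held for 21.2% and 24.5% of all probes. The median difference over the 23 probes was −0.17 and over all probes tested 0.02, and 16 member probes (69.6%) lay below 0 against 47.3% of all. These shares describe the members and are not tests of them.

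**Figure D1:**
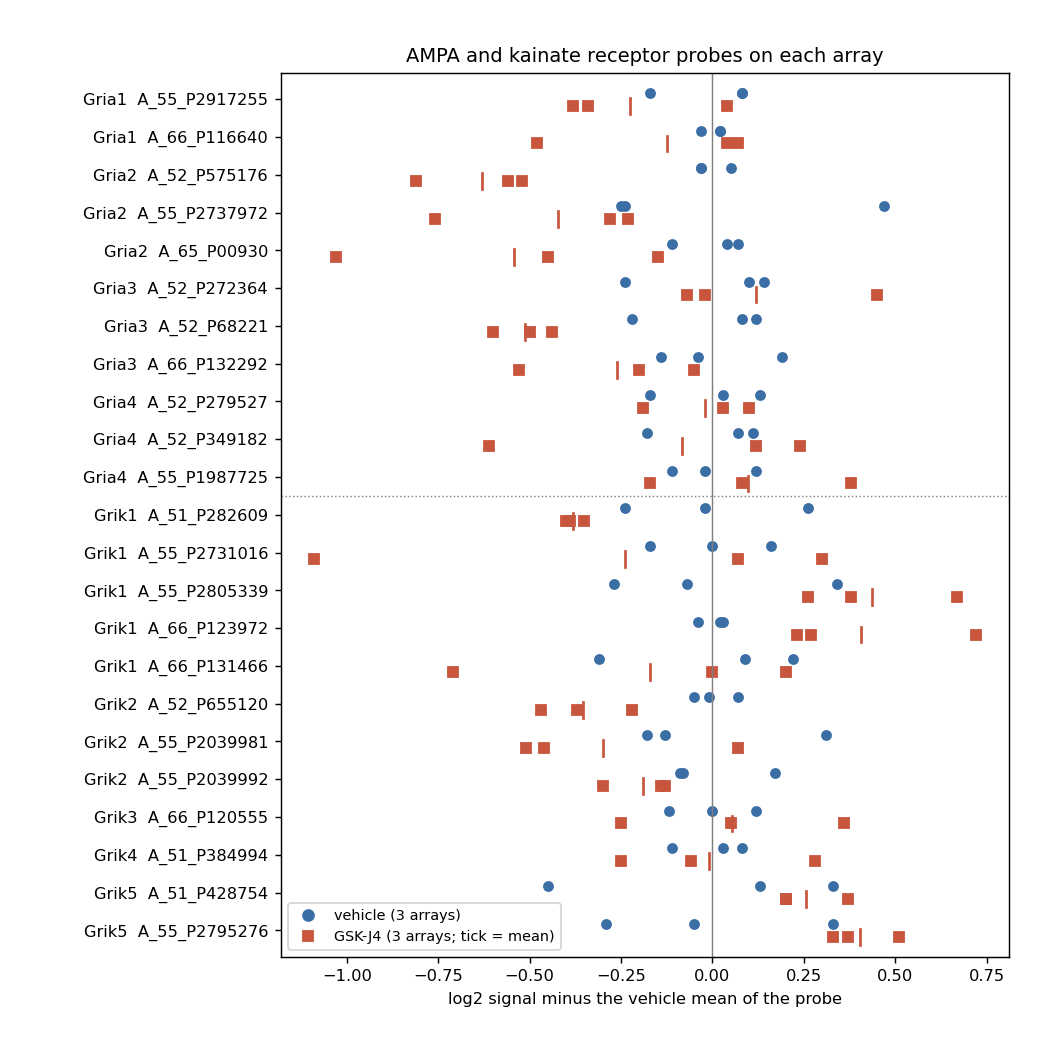
Signal of each of the 23 AMPA and kainate receptor probes on each array, as log2 signal minus the mean of the 3 vehicle arrays of that probe, with vehicle arrays as circles, GSK-J4 arrays as squares and a tick at their mean. The dotted line parts AMPA from kainate receptor probes, and the squares of Gria2 A_52_P575176, Gria3 A_52_P68221 and Grik2 A_52_P655120 all lie left of their circles.

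Among the AMPA receptor subunits, 9 of 11 probes lay below 0 with a median of −0.22, and the range ran from −0.63 to 0.12. Gria2 gave the largest difference of any member. Its probe A_52_P575176 (chr3:80492452-80492511, minus strand, mm9) read 15.29, 15.37 and 15.29 on vehicle arrays 1 to 3 and 14.51, 14.8 and 14.76 on GSK-J4 arrays 1 to 3. All 3 GSK-J4 arrays were below all 3 vehicle arrays, and GSK-J4 array 1 was the lowest. The difference was −0.63 (SE 0.10, 95% interval −0.88 to −0.38, n = 3 per group), a 1.55-fold lower signal, with a limma adjusted p of 0.0211. This was also the member probe that passed the study's thresholds. The exact permutation test of a single probe cannot go below p = 0.1 with 3 arrays per group, which was its value for A_52_P575176. Leaving out any 1 vehicle array ended the call, with a limma adjusted p of 0.0673 without vehicle array 1, 0.0807 without 2 and 0.0777 without 3, while the difference stayed between −0.69 and −0.54 whichever array was left out.

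The size of the Gria2 difference depended on how the arrays were scaled. When each array was set to its own 75th percentile and not quantile normalized, A_52_P575176 differed by −0.21 (limma adjusted p = 0.162), so the call was lost. On that scale the 1494 probes with a mean log2 signal of 14 or more had a median difference of 0.44, and 63.9% were called higher. In the deposited values the median at that level was 0.03. Quantile normalization gives every array the same distribution of signals, which sets bright probes as a class about equal between the groups. These medians therefore do not show which scale is right. After a correction for GC content the difference was −0.66 (adjusted p = 0.025), and after another background correction, normexp, it was −0.59 (adjusted p = 0.0164).

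The other 2 Gria2 probes also lay below 0 without passing the test. A_65_P00930 (chr3:80495725-80495784) read 10.05, 9.9 and 10.08 with vehicle and 8.98, 9.56 and 9.86 with GSK-J4, a difference of −0.55 (SE 0.23, limma adjusted p = 0.143). Its groups did not overlap, but the GSK-J4 arrays spread over almost a log2 unit. A_55_P2737972 (chr3:80511515-80511574) read 10.77, 10.05 and 10.06 with vehicle and 10.02, 10.07 and 9.54 with GSK-J4, a difference of −0.42 (SE 0.25, limma adjusted p = 0.276), and here the groups overlapped and vehicle array 1 was the high one. Both probes have a GC content of 35%, at which the median of the 7292 probes tested was −0.15 and 15.3% were called lower. At the 45% of A_52_P575176 the median of 7956 probes was 0.08 and 6.16% were called lower.

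Gria1 encodes the subunit whose insertion into synapses accompanies long-term potentiation, and neither of its probes passed the test. A_55_P2917255 (chr11:57141228-57141287) read 15.23, 15.48 and 15.48 with vehicle and 15.06, 15.44 and 15.02 with GSK-J4. GSK-J4 array 2 lay among the vehicle arrays, and the difference was −0.22 (SE 0.14, 95% interval −0.58 to 0.13, limma adjusted p = 0.307), with a positive sign of 0.22 under the 75th percentile scaling. A_66_P116640 differed by −0.13 (SE 0.16), which rested on GSK-J4 array 1 at 12.36 against 12.81 to 12.91 on the other 5 arrays, was 0.05 without that array and was 0.07 under the 75th percentile scaling.

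Gria3, an X-linked gene whose GluA3 subunit pairs with GluA2, was lower at 1 of 3 probes. A_52_P68221 (chrX:39031099-39031158, plus strand) read 11.44, 11.78 and 11.74 with vehicle and 11.06, 11.22 and 11.16 with GSK-J4. The groups did not overlap, and the difference was −0.50 (SE 0.12, 95% interval −0.79 to −0.22), a 1.42-fold lower signal with a limma adjusted p of 0.04. It kept its sign but not the call under the 75th percentile scaling (−0.38, adjusted p = 0.0713), after the GC correction (−0.43, adjusted p = 0.0644) and without any 1 array (−0.61 to −0.44). A_66_P132292 differed by −0.26 (SE 0.16, limma adjusted p = 0.271) with overlapping groups. The dim probe A_52_P272364 (chrX:38965889-38965948), read 5.09, 5.43 and 5.47 with vehicle and 5.31, 5.26 and 5.78 with GSK-J4, a difference of 0.12 (SE 0.18, limma adjusted p = 0.654) that was −0.01 under the 75th percentile scaling and −0.04 with normexp.

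Gria4 encodes the subunit of the fastest AMPA receptors, and its 3 probes gave the smallest differences of the family. They were −0.02 (SE 0.12), −0.08 (SE 0.24) and 0.10 (SE 0.15), with limma adjusted p-values of 0.932, 0.827 and 0.669 and with overlapping groups at every probe. The brightest, A_55_P1987725 (chr9:4417896-4417955), read 10.4, 10.31 and 10.54 with vehicle and 10.8, 10.5 and 10.25 with GSK-J4, and its 95% interval of −0.28 to 0.48 leaves room for a change of either sign. The GC correction turned the sign of the other 2 Gria4 probes, to 0.17 and 0.10.

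**Figure D2:**
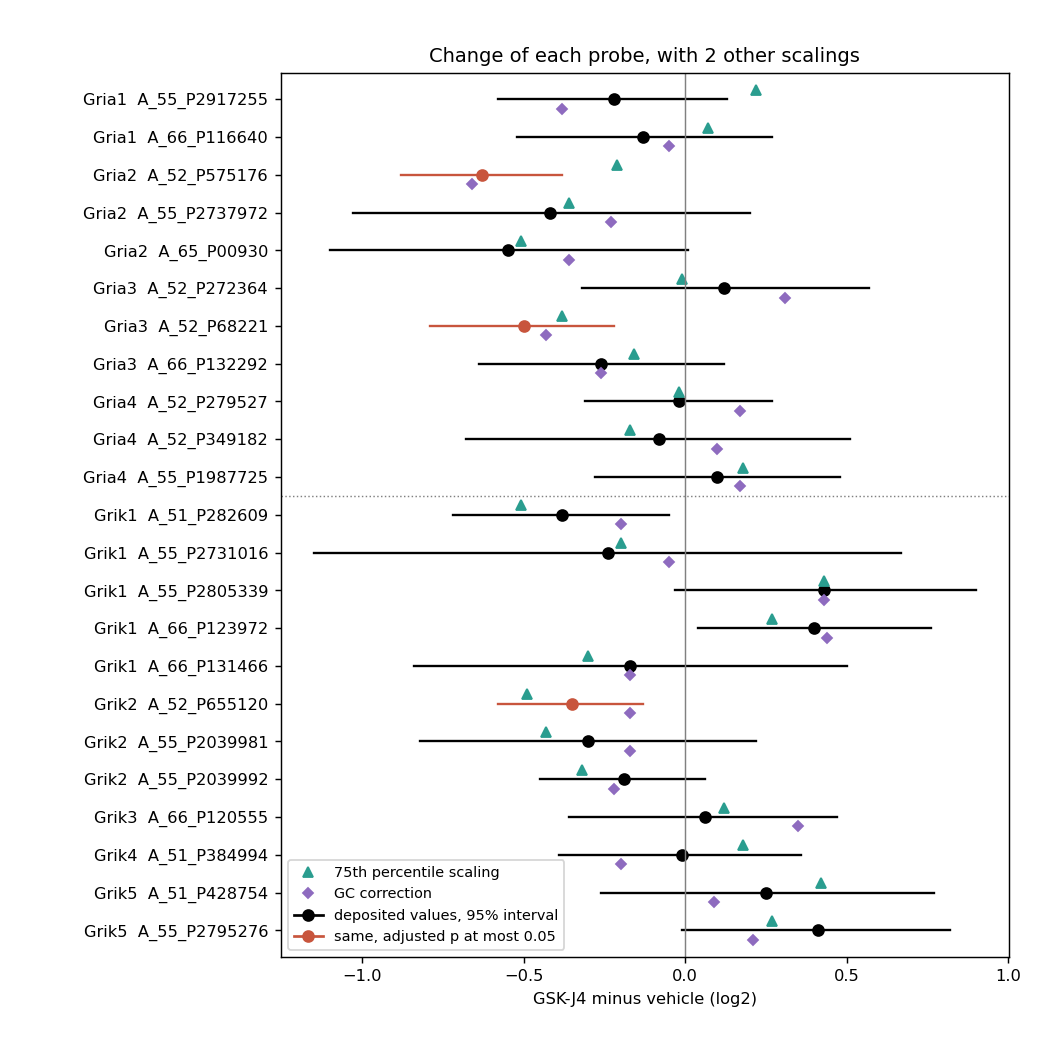
Difference of each probe between GSK-J4 and vehicle (log2), with circles and 95% intervals for the deposited values, red where the limma adjusted p was at most 0.05, triangles for the 75th percentile scaling and diamonds for the GC correction. The triangle of Gria2 A_52_P575176 stands at −0.21 outside its interval, which ends at −0.38, and both Gria1 triangles lie right of 0.

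The brightest probes of the subunits were also compared with each other on the same array, a comparison chosen after these values had been seen. Levels of different probes cannot be set against each other, so only the change of their difference is given. Gria2 minus Gria1 was lower with GSK-J4 by −0.41 (SD 0.13 over vehicle and 0.20 over GSK-J4 arrays), with no overlap of the groups. It was −0.43 under the 75th percentile scaling and −0.28 after the GC correction, and −0.52 to −0.33 when an array was left out. The difference Gria4 minus Gria2 was higher by 0.73 and Gria4 minus Gria3 by 0.61, again without overlap, with 0.39 and 0.56 under the 75th percentile scaling. Gria3 minus Gria1 changed by −0.28 without overlap, although by −0.05 after the GC correction. For Gria4 minus Gria1 (0.32) and Gria3 minus Gria2 (0.13) the groups overlapped, and the signs turned to −0.04 and −0.17 under the 75th percentile scaling. Of the 16 pairs computed, 4 of 6 AMPA pairs and 0 of 10 kainate pairs did not overlap. The AMPA pairs share 4 probes and are not independent, no share over pairs of other genes was computed, and among single probes of the array 21.2% and 24.5% did not overlap in the lower and the higher direction. Each of the 4 had an exact permutation p of 0.1, the smallest possible with 3 arrays per group, and 0.4 after Benjamini-Hochberg adjustment over the 16 pairs.

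**Figure D3:**
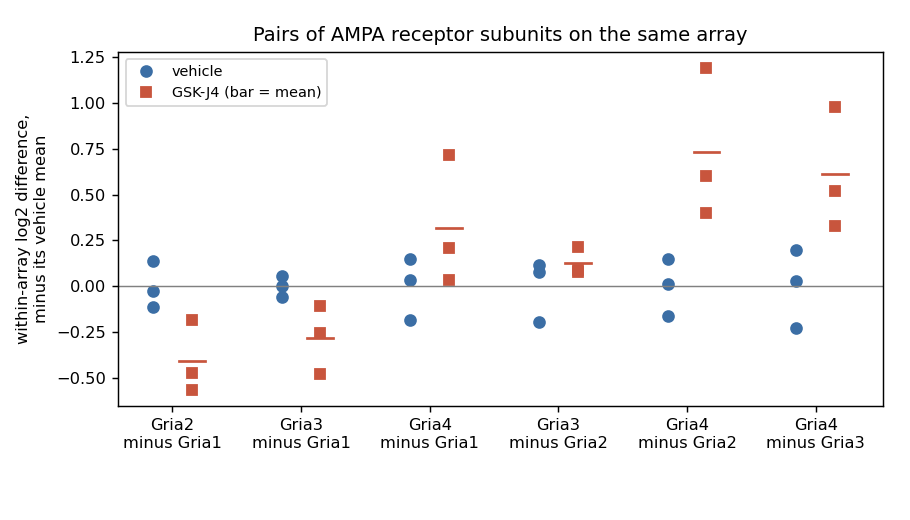
Difference between the brightest probes of each pair of AMPA receptor subunits on the same array (log2), minus the mean of that difference over the vehicle arrays, with vehicle arrays as circles, GSK-J4 arrays as squares and a bar at their mean. The bars stand at −0.41 for Gria2 minus Gria1 and at 0.73 for Gria4 minus Gria2, and in both pairs squares and circles do not overlap.

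Among the kainate receptor subunits, 7 of 12 probes lay below 0 with a median of −0.09 and a range from −0.38 to 0.43. Grik2, whose transcript is edited as that of Gria2 is, had all 3 probes below 0 and 1 of them called. The called probe A_52_P655120 (chr10:48820299-48820358) is a dim one. It read 5.77, 5.73 and 5.85 with vehicle and 5.56, 5.31 and 5.41 with GSK-J4, with no overlap and with all arrays of a group close together. The difference of −0.35 (SE 0.09), a 1.28-fold lower signal, reached a limma adjusted p of 0.0499, just inside the threshold. It was −0.17 (adjusted p = 0.263) after the GC correction and −0.14 (adjusted p = 0.17) with normexp, but −0.49 (adjusted p = 0.0171) under the 75th percentile scaling, and leaving out any 1 array ended the call (adjusted p = 0.054 to 0.146). The other Grik2 probes differed by −0.30 (SE 0.21, adjusted p = 0.342) and, at A_55_P2039992, by −0.19 (SE 0.10, adjusted p = 0.237). At A_55_P2039992 the groups did not overlap either.

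Grik1 had 5 probes, of which 3 lay below and 2 above 0, and none passed the test. A_51_P282609 (chr16:87896231-87896290) read 7.44, 7.66 and 7.94 with vehicle and 7.29, 7.28 and 7.33 with GSK-J4. All GSK-J4 arrays were lower and almost equal, and the difference of −0.38 (SE 0.14) had a limma adjusted p of 0.103, and passed under the 75th percentile scaling with −0.51 (adjusted p = 0.0419). A_66_P123972 read 6.95, 7.01 and 7.02 with vehicle and 7.71, 7.22 and 7.26 with GSK-J4, so all GSK-J4 arrays were higher, array 1 most, and the difference was 0.40 (SE 0.15, limma adjusted p = 0.108). A_55_P2805339 read 8.5, 8.7 and 9.11 with vehicle and 9.44, 9.15 and 9.03 with GSK-J4, a difference of 0.43 (SE 0.19, limma adjusted p = 0.158) with overlap.

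The 60 bases of both Grik1 probes above 0 do not lie in 1 genomic stretch and have positions that run over 12655 genomic bases for A_66_P123972 (chr16:87923523-87936177) and 17861 for A_55_P2805339 (chr16:87896544-87914404), whereas the 3 probes below 0 each lie within 60 genomic bases. The brightest Grik1 probe, A_55_P2731016, read 9.78, 9.94 and 9.61 with vehicle and 10.08, 9.85 and 8.69 with GSK-J4. GSK-J4 array 3 alone was low, and the difference of −0.24 (SE 0.37) was 0.19 without it. The faint A_66_P131466 was well above background on 5 arrays and differed by −0.17 (SE 0.27).

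Whether probes of 1 gene changed unequally was tested for the 14 member probes that have a brighter probe of the same gene. With limma 0 of 14 passed, beside 10.1% of the 12326 such probes on the array, and 1 of 14 had an unadjusted p of at most 0.05, beside 30% of all such probes. That one was Gria3 A_52_P272364 against A_52_P68221, a difference between their changes of 0.63 (SE 0.16, adjusted p = 0.063). For the Grik1 probes A_55_P2805339 and A_66_P123972 against the brightest Grik1 probe the differences between the changes were 0.67 (SE 0.35, adjusted p = 0.26) and 0.64 (SE 0.32, adjusted p = 0.24).

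Grik3 and the high-affinity subunits Grik4 and Grik5 gave no call. Grik3 A_66_P120555 read 10.06, 10.18 and 10.3 with vehicle and 10.54, 9.93 and 10.23 with GSK-J4, a difference of 0.06 (SE 0.17, 95% interval −0.36 to 0.47). Grik4 A_51_P384994 read 12.47, 12.61 and 12.66 with vehicle and 12.52, 12.86 and 12.33 with GSK-J4, a difference of −0.01 (SE 0.15, 95% interval −0.39 to 0.36) that was 0.18 under the 75th percentile scaling. In both genes the GSK-J4 arrays lay on both sides of the vehicle arrays, and the limma adjusted p-values were 0.832 and 0.955.

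Grik5 had both probes above 0. A_51_P428754 read 12.15, 12.35 and 11.57 with vehicle and 12.22, 12.39 and 12.22 with GSK-J4, a difference of 0.25 (SE 0.21, limma adjusted p = 0.421) that was 0.03 without vehicle array 3, the lowest array. A_55_P2795276 read 5.81, 6.43 and 6.05 with vehicle and 6.61, 6.43 and 6.47 with GSK-J4, a difference of 0.41 (SE 0.17, limma adjusted p = 0.14). Its groups met without overlapping, since vehicle array 2 and GSK-J4 array 2 were equal to 2 decimals. These probes have GC contents of 50% and 55%, at which the medians of all probes tested were 0.19 and 0.24.

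The change of a probe went with its GC content across the array. The 7890 probes with at most 35% GC had a median difference of −0.16, with 15.8% called lower and 1.74% higher, whereas the 6871 probes above 48% had a median of 0.23, with 1.59% called lower and 20.4% higher. Against probes of equal GC content, Gria2 A_52_P575176 at −0.63 and Gria3 A_52_P68221 at −0.50 lay below medians of 0.08 and −0.04, and Grik2 A_52_P655120 at −0.35 below a median of −0.15. GC-corrected values of these probes are given above, and the part of GC content in the call of a single probe was not tested.

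**Figure D4:**
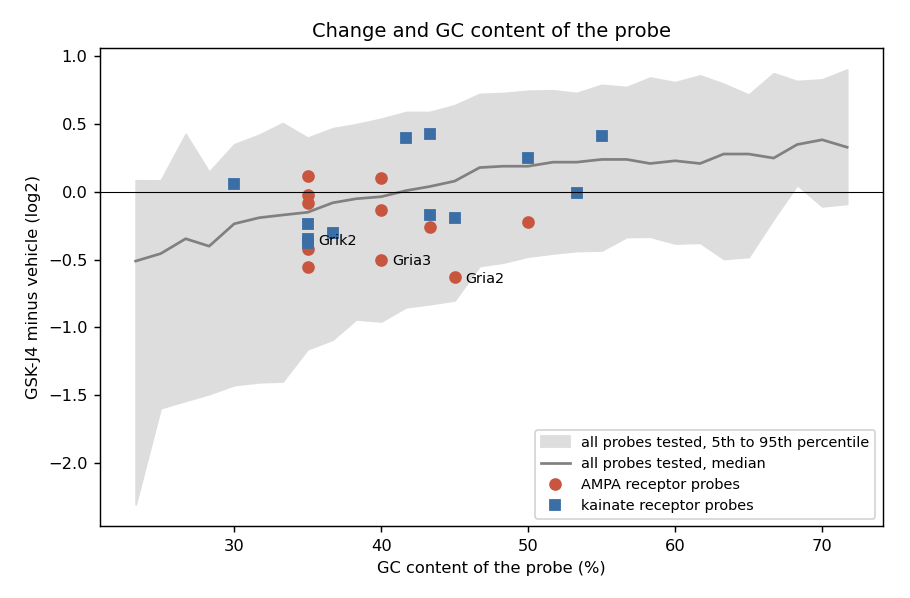
Difference between GSK-J4 and vehicle (log2) against the GC content of the probe (%), with AMPA receptor probes as circles, kainate receptor probes as squares, and the median and the 5th to 95th percentile of the probes tested as line and band. The band and line rise with GC content, and the named Gria2 probe at 45% lies at −0.63 where the median of all probes is 0.08.

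The proteins that accompany these receptors were described by lists drawn up from textbook roles, with earlier results of these data known. Over all 22117 gene names tested, 12.1% had a probe called higher and 11.5% a probe called lower, and the median of the brightest probes was 0.04. Leaving out any 1 of the vehicle arrays left 0 genes called in each of these lists, and on the whole array it left 1 to 2 probes called higher and 4 to 12 called lower. Auxiliary subunits, which travel with the receptors and set their gating and surface level, had 4 of 21 genes called higher and 0 lower (1 without GSK-J4 array 2), with a median of 0.18. The 4 genes were Cacng7 (0.61, SE 0.14, limma adjusted p = 0.037) and Cacng4 (0.50, SE 0.11, adjusted p = 0.039), both transmembrane AMPA receptor regulatory proteins, Shisa9 (0.54, SE 0.08, adjusted p = 0.019), which slows recovery from desensitization, and Frrs1l (0.49, SE 0.12, adjusted p = 0.043), which takes part in receptor assembly. All 4 stayed called after the GC correction (adjusted p = 0.033 to 0.047) and under the 75th percentile scaling (0.014 to 0.021). Under that scaling, however, 14.6% of all probes were called higher, against 8.39% in the deposited values. There Cacng7 (0.82), Frrs1l (0.71) and Cacng4 (0.60) differed more and Shisa9 (0.45) less. The count of genes called higher in the list was 2 without GSK-J4 array 1, 9 without array 2 and 3 without array 3. Over all alternatives with their probe the differences ran from 0.54 to 0.82 for Cacng7, 0.39 to 0.60 for Cacng4, 0.36 to 0.59 for Shisa9 and 0.43 to 0.71 for Frrs1l. Neto1, an auxiliary subunit of kainate receptors, stood at −0.38 (adjusted p = 0.056). The summed signal of the auxiliary list, in which bright genes weigh most, went the other way. It was 217680 to 225143 with vehicle and 186039 to 216385 with GSK-J4, lower without overlap. Among single probes tested on the array, 21.2% did not overlap in the lower direction.

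Scaffold and trafficking proteins anchor the receptors at the synapse or move them to it. Of their 23 measured genes, 8 had a probe called higher and 6 a probe called lower. The 2 genes Epb41l1 and Nsf were in both counts. The counts were 4 and 5 without GSK-J4 array 1, and 4 and 8 without array 3. A gene with more probes can be counted more easily. Dlg2, Epb41l1 and Dlgap1 had 6 probes tested each, whereas the array had 34443 probes tested for 22117 gene names. These counts are therefore not directly comparable with the shares over all gene names. The median of the brightest probes of the scaffold and trafficking genes was −0.17. The largest called differences were −1.28 for Dlgap1 (SE 0.23, limma adjusted p = 0.025), −1.27 for Epb41l1 (SE 0.19, adjusted p = 0.019), −1.24 for Grip1 (SE 0.15, adjusted p = 0.015), −1.08 for Dlg2 (SE 0.12, adjusted p = 0.014) and 1.05 for Shank1 (SE 0.20, adjusted p = 0.027). Grip1 binds the tails of GluA2 and GluA3, Epb41l1 links GluA1 to the actin cytoskeleton, and Dlg2, Dlgap1 and Shank1 are layers of the postsynaptic density. Each of these values belongs to 1 probe of the gene, and another probe of Epb41l1 was called higher. The brightest probe was not called for Dlgap1 (−0.35, adjusted p = 0.076), Epb41l1 (−1.28, SE 1.09, adjusted p = 0.43), Grip1 (0.23, adjusted p = 0.072) and Dlg2 (−0.10, adjusted p = 0.66), and was called for Shank1 (0.50, adjusted p = 0.045). With normexp the differences of Grip1 and Epb41l1 shrank to −0.35 and −0.36.

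The editing enzymes were Adarb1, Adarb2 and Adar. Adarb1, which edits the Gria2 transcript, was higher at 1 of 4 probes (0.45, SE 0.08, limma adjusted p = 0.023) while its brightest probe was at 0 (adjusted p = 0.98). Adarb2, which has no known editing activity of its own, was lower (−0.58, SE 0.14, adjusted p = 0.047), without a call after the GC correction (−0.39, adjusted p = 0.12), and Adar stood at −0.27 (adjusted p = 0.077).

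Of the delta receptors, relatives that bind cerebellins at the synapse and do not open on binding glutamate, Grid1 was higher (0.55, SE 0.11, adjusted p = 0.028), without a call after the GC correction (0.36, adjusted p = 0.07).

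**Figure D5:**
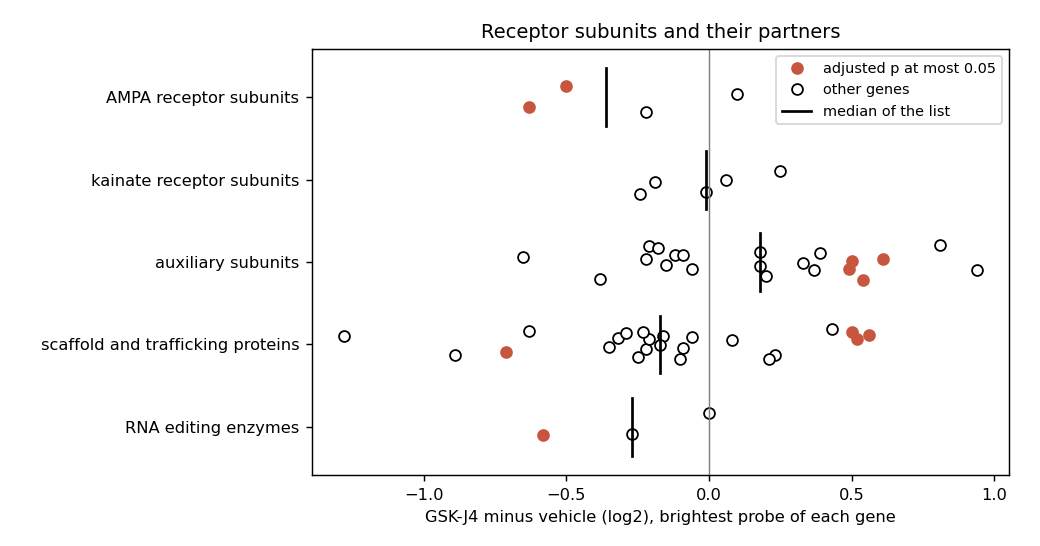
Difference between GSK-J4 and vehicle (log2) at the brightest probe of each gene in the receptor lists, filled where that probe's limma adjusted p was at most 0.05, with a bar at the median of each list and a vertical spread for legibility only. The AMPA receptor bar stands at −0.36 and that of the auxiliary subunits at 0.18.

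For likeness, the Gria2 probe A_52_P575176 was set beside the 30918 other probes that were well above background on all 6 arrays. The closest were Fam189b (Pearson r = 0.9992 over the 6 arrays, difference −0.12), Spats1 (r = 0.9987, difference −0.68) and Dmd (r = 0.9985, difference −0.47). These correlations are over 6 arrays in 2 groups and hold the group difference, so they are a description only.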

How the data were processed

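RNA of 6 samples, 3 labelled vehicle and 3 GSK-J4, was measured on 1-color Agilent SurePrint G3 mouse arrays. The authors extracted spot intensities with Agilent Feature Extraction (10.7.1.1 per the submitters' processing notes) and deposited these intensity files with the flags of each spot. The deposited table holds log2 values quantile normalized by the authors in GeneSpring. Once sorted, the columns differed by at most 0.00424, and the lowest correlation of a column with the scanner intensities (log2) of the same array was 0.9992. They were assigned to samples by name, with 0 unassigned. Probe positions are those of the files (mm9) and were not set against an annotation.

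The log2 values were used here as deposited. A probe was tested where the 3 arrays of either group all flagged it as well above background, which left 34443 of 56605 probes. They were fitted with lmFit and eBayes (limma 3.58.1 in R 4.3.3), two-sided, without covariates, with Benjamini-Hochberg adjustment over all probes and a threshold of 0.05. Intervals are at 95%. Single probes and pairs of probes were also given an exact permutation test. No 2 arrays were identical (r = 0.969 to 0.9946 between arrays). The number of arrays limits the precision. A limma p-value sets the difference between the groups against the spread within them. That spread holds no variation between slides, since each group lay on a slide of its own. The fit was tested on simulated data.

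The members and lists were chosen with earlier results of these data known. Named genes are all 9 members with every probe, at most 5 genes per partner list with an adjusted p of at most 0.05 by the size of the difference, and the 3 gene names closest to the Gria2 probe by Pearson r. Other genes named with a value (Neto1, Adar, Snap25, Syt1, Slc1a3, Npy, Pomc) were added after their values were seen. Epb41l1 is listed on the array under an older symbol, Nptxr had no match among the names on the array, and Cbln3 did not pass the filter. The counts of the list of delta receptors and cerebellins, and 1 gene in it, are not reported here.

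Replicate numbers were not taken to pair the samples. Alternatives were scanner signals quantile normalized here, scaling to the 75th percentile, normexp with an offset of 50, a lowess correction for GC content (span 30%), other filters, the brightest probe per gene, limma-trend, the methods' test without equal variances, the replicate number as a block, and leaving out each array.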

Additional observations from a re-analysis of the deposited data

How the results depend on the processing

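Slide could not be fitted as a block, since each slide held 1 group. Of all probes, 2889 were called higher and 2899 lower, with 5037 higher under the 75th percentile scaling, 1852 lower after the GC correction, 1793 higher with no filter on dim probes, 1723 lower with the brightest probe per gene, and 56 higher and 37 lower by the methods' test without equal variances. Leaving out 1 array gave 1 to 2075 higher and 4 to 2481 lower, the lowest counts coming without a vehicle array. Arrays with the same replicate number correlated in their deviations from the group mean at 0.007, 0.026 and 0.081, and not every array correlated best with its own number. With this number as a replicate block, 0 were called in either direction, with or without the GC correction (5756 higher and 5314 lower at an unadjusted p of 0.05 without it), and so were 0 members, with a limma adjusted p of 0.0802 for the Gria2 probe. The 3 members called lower became 1 after the GC correction or with no filter, 0 by the methods' test and 0 to 1 without 1 array. Where 1 was left in these settings, it was Gria2 A_52_P575176. Under the 75th percentile scaling 2 were called lower, Grik2 A_52_P655120 (limma adjusted p = 0.0171) and Grik1 A_51_P282609 (0.0419), and Gria2 A_52_P575176 was not (0.162). Of the members, 1 passed the study's thresholds in the lower direction, 0 under the 75th percentile scaling and 0 to 2 without 1 array, and in the higher direction 0 to 1 without 1 array. Unequal change of probes of a gene was called for 1244 probes, for 416 with no filter, for 0 with a replicate block, with or without the GC correction, and for 0 to 1498 without 1 array. The change of Gria2 relative to Gria1 stayed between −0.52 and −0.28 in all 10 alternatives run. Signs turned under the 75th percentile scaling for Gria1 A_55_P2917255 (0.22) and A_66_P116640 (0.07), Grik4 (0.18) and Gria3 A_52_P272364 (−0.01), the last also with normexp (−0.04), and after the GC correction, with or without the block, for Gria4 A_52_P279527 (0.17) and A_52_P349182 (0.10). Without 1 array the differences ranged from −0.10 to 0.21 for Grik3, −0.16 to 0.11 for Grik4, −0.10 to 0.07, −0.25 to 0.18 and −0.04 to 0.23 for Gria4 A_52_P279527, A_52_P349182 and A_55_P1987725, −0.22 to 0.05 for Gria1 A_66_P116640, −0.36 to 0.10 and −0.51 to 0.19 for Grik1 A_66_P131466 and A_55_P2731016, and −0.04 to 0.22 for Gria3 A_52_P272364. The causes were not tested.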
